A study of Mus musculus with 6 samples.

Results

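The genes of ribosome biogenesis and the nucleolus were followed through 3 sorted populations of mouse bone marrow cells. The set holds 49 listed genes, matched by gene ID to their mouse symbol, of 24532 gene IDs in the tables, and the rule that lists them uses no expression value, although earlier results of these data were known when the list was made. All 49 had a TPM (a transcript level scaled for gene length and library size) of 1 or more in at least 2 libraries and were tested among 11337 genes. RNA sequencing gave 6 libraries from C57BL/6J mice, 2 per population, and the labels name the pairs as biological duplicates. BaP, a basophil precursor by its label, was sorted as Lineage-negative and c-Kit-negative cells positive for CD34 and for MAR1, an antibody to the alpha chain of the IgE receptor. MAR1HI and MAR1INT shared a gate for CD200R3 that was negative for Lineage, CD34 and c-Kit, and differed in MAR1, high or intermediate. No group carried a transgene, deletion or treatment by its labels, and the labels give no age and do not say whether mice were pooled. The p-values therefore measure the spread between these libraries, which may be in part technical.

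Ribosomes are built in the nucleolus. RNA polymerase I transcribes the long precursor of the ribosomal RNAs, and small nucleolar ribonucleoproteins (snoRNPs) modify it, the box C/D class by methylation and the box H/ACA class by pseudouridylation. The small-subunit processome then folds and cleaves the precursor, and separate sets of assembly factors carry the small and the large subunit to maturity. In blood formation the pathway is known to be active in growing precursors and to be turned down as granulocytes mature.

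Aligned bases lay between 4.75 and 5.28 gigabases per library, and 9604 to 11544 genes reached 1 TPM, with both MAR1INT libraries at the low end. The 8 basophil markers, among them Mcpt8, Cpa3, Fcer1a, Ms4a2 and Cd200r3, were all above 0 in every library. They summed to 16838 to 21639 TPM in BaP and MAR1HI and to 13492 and 10747 in MAR1INT. Both MAR1INT libraries lay below both BaP libraries in Mcpt8, Cpa3, Fcer1a and Prss34. They lay above both in Ms4a2, Il3ra, Cd200r3 and Gata2. Markers of other cells were present too, at levels that differed between populations. Not every list was highest in BaP. In the order BaP, MAR1HI and MAR1INT, the erythroid list had mean sums of 1984, 940 and 2036 TPM. The megakaryocyte list had 273, 482 and 395 TPM, nearly all from Itga2b (250, 464 and 387 TPM). Of its other genes, Pf4 (8.81, 1.64 and 0 TPM) and Gp9 were highest in BaP. Gp1ba was highest in MAR1HI and Ppbp in MAR1INT. The B and plasma cell list had 23.5, 38.4 and 20.3 TPM. The dendritic cell list, led by genes of antigen presentation, summed to 961 and 339 TPM in BaP and to 10.8 to 54.1 TPM elsewhere, with Xcr1 at 0.08 TPM or less in all libraries. The neutrophil list summed to 6011 and 10667 TPM in BaP and to 3212 to 4750 TPM in the other 4. The eosinophil list, led by Prg2, summed to 2160.4 and 1146 TPM in BaP and to 81.2 to 228 elsewhere. Within it Siglecf went the other way: 21.9 and 20.9 TPM in BaP, 29.5 and 44.5 in MAR1HI, then 79.5 and 110 in MAR1INT. The other genes of that list had their highest mean in BaP. The monocyte and macrophage list had 266 and 360.4 against 105.1 to 144. In that list Adgre1 was at 41.6 and 24.8 TPM in BaP, 6.51 and 7.38 in MAR1HI, then 25.5 and 47.6 in MAR1INT. Its other genes had their highest mean in BaP. The stem and progenitor list had 106 and 97.8 against 6.37 to 26.5. The T and NK cell list, at 373 and 383 against 34.1 to 195, was nearly all Nkg7 (371 and 380 TPM in BaP). Cd3g was listed at 0 in every library and Cd3e at 0 in BaP, where Cd4 stood at 2.17 and 2.02 TPM. Kit RNA stood at 44.9 and 38.6 TPM in BaP, 2.94 and 4.36 in MAR1HI, then 0.0446 and 0.449 in MAR1INT. Its surface protein is gated as negative in all groups, so in BaP the RNA was present although the gate is negative. Surface protein was not measured in these libraries. The 24 proliferation markers, such as Mki67 and Pcna, summed to 2999.7 and 3174 TPM in BaP, 3200 and 4054 in MAR1HI, then 612 and 445 in MAR1INT. In bulk libraries, fewer cells of one type and less RNA per cell cannot be told apart.

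Promoter sequence is shown for 2 motifs often named for growth-related promoters: the E-box CACGTG, to which the Myc family binds, and the ETS core CCGGAAG. RefSeq windows (GRCm38.p6) of 250 bases before to 50 after the gene start were held for 44 of the 49 genes. The windows of Fbl, Npm1, Utp6, Rrp12 and Bop1 were not used here. CACGTG, which reads the same on both strands, was in 12 of 44 members (27.3%), against 11.9% of the 8853 tested genes with a window and 8.09% of all 27025 genes with one. CCGGAAG, searched on both strands, was in 15 of 44 (34.1%), against 22.0% of tested and 9.93% of all genes. The motifs cannot share a base, and 6 members held both (Ltv1, Nop2, Rrn3, Tsr1, Utp18 and Utp4). A match describes letters and is not a bound site. The E-box sites of the 6 members that were called lower in MAR1INT than in BaP are shown first, with CACGTG in capitals, 5′ to 3′ on the gene's strand, each with its position.
Ltv1, chr10:13193092-13193121, minus strand: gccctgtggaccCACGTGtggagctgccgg
Utp20, chr10:88826765-88826794, minus strand: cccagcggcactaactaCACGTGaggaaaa
Pno1, chr11:17211540-17211569, minus strand: tgcgctgtacaaccacgCACGTGttcctct
Tsr1, chr11:74898092-74898121, plus strand: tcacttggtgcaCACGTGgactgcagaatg
Mybbp1a, chr11:72441347-72441376, plus strand: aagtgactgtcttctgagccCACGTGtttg
Wdr43, chr17:71616220-71616249, plus strand: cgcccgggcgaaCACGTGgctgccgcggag
Counted from the start of the RefSeq window (its first transcribed base is +1), the E-box of Utp20 and of Pno1 begins at +38, that of Ltv1 at +29, that of Tsr1 at +25 and that of Wdr43 at +18. In Mybbp1a it begins at +41 of the RefSeq window but lies before the gene's start in the deposited tables. The 6 other members with an E-box were not called lower, and the site lies after the start in Utp4 (+16) and Pes1 (+3) and before it in Imp4 (-121), Nop2 (-60), Rrn3 (2 sites, -215 and -48) and Utp18 (-20). The site of Utp18 is shown as one of these.
Utp18, chr11:93885769-93885798, minus strand: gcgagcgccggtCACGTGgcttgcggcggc
Of the 24 members with a window that were called lower in MAR1INT than in BaP, 6 held the E-box (25%), as did 6 of the other 20 (30%). The ETS core was in 6 of those 24 and in 9 of the other 20 (45%).

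The 120 bases before the start are shown for Nop2, which holds both motifs, and Nolc1, which holds the ETS core. They are also shown for Nop10 and Dkc1, which hold neither and were called lower in MAR1INT than in MAR1HI and BaP. Motif letters are in capitals.
Nop2, chr6:125131763-125131882, plus strand: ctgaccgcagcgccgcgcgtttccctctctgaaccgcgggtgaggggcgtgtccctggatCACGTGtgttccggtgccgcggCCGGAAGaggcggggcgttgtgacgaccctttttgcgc
Nolc1, chr19:46075727-46075846, plus strand: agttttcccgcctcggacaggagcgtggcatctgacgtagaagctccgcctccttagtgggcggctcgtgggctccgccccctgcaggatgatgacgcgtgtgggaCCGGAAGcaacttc
Nop10, chr2:112261806-112261925, plus strand: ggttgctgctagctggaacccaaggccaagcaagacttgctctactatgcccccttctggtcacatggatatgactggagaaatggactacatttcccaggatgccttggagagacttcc
Dkc1, chrX:75095734-75095853, plus strand: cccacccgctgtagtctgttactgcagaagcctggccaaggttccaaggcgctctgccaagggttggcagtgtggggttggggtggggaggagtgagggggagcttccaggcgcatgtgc
The G and C content of these stretches was 69.2% in Nop2, 64.2% in both Nolc1 and Dkc1, and 51.7% in Nop10.

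Taken as a sum, the 49 genes gave 2731 and 1969 TPM in the BaP libraries, 1419 and 1815 in MAR1HI, then 1046 and 1010.1 in MAR1INT. The group ranges do not overlap, and the order of the sums runs from BaP down to MAR1INT. Values of a gene are given in that order of the groups, replicate 1 before replicate 2, and a step or decline refers to this order and not to time. The means were 2350.45 ± 539, 1617 ± 279 and 1028 ± 25.4 TPM (SD, n = 2 each), so that MAR1HI stood at 68.8% and MAR1INT at 43.7% of BaP. No member was listed at 0 in BaP or MAR1HI, whereas MAR1INT replicate 1 listed 3 at 0 (Nat10, Pno1 and Rrp1b) and MAR1INT replicate 2 listed 1 (Wdr12). The BaP libraries differed from each other, with 37 of 49 members higher in replicate 1. The MAR1HI duplicates differed the other way, with 5 of 49 higher in replicate 1. That shift was not particular to the members: the median tested gene was at 16.9 TPM in MAR1HI replicate 1 and 23.6 in replicate 2. In BaP it was at 16.2 and 16.7 TPM. The dendritic cell and eosinophil lists were higher in BaP replicate 1 and the neutrophil list in replicate 2. The part of these or other lists highest in BaP, in the gaps between duplicates or the differences between populations, was not tested.

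**Figure D1:**
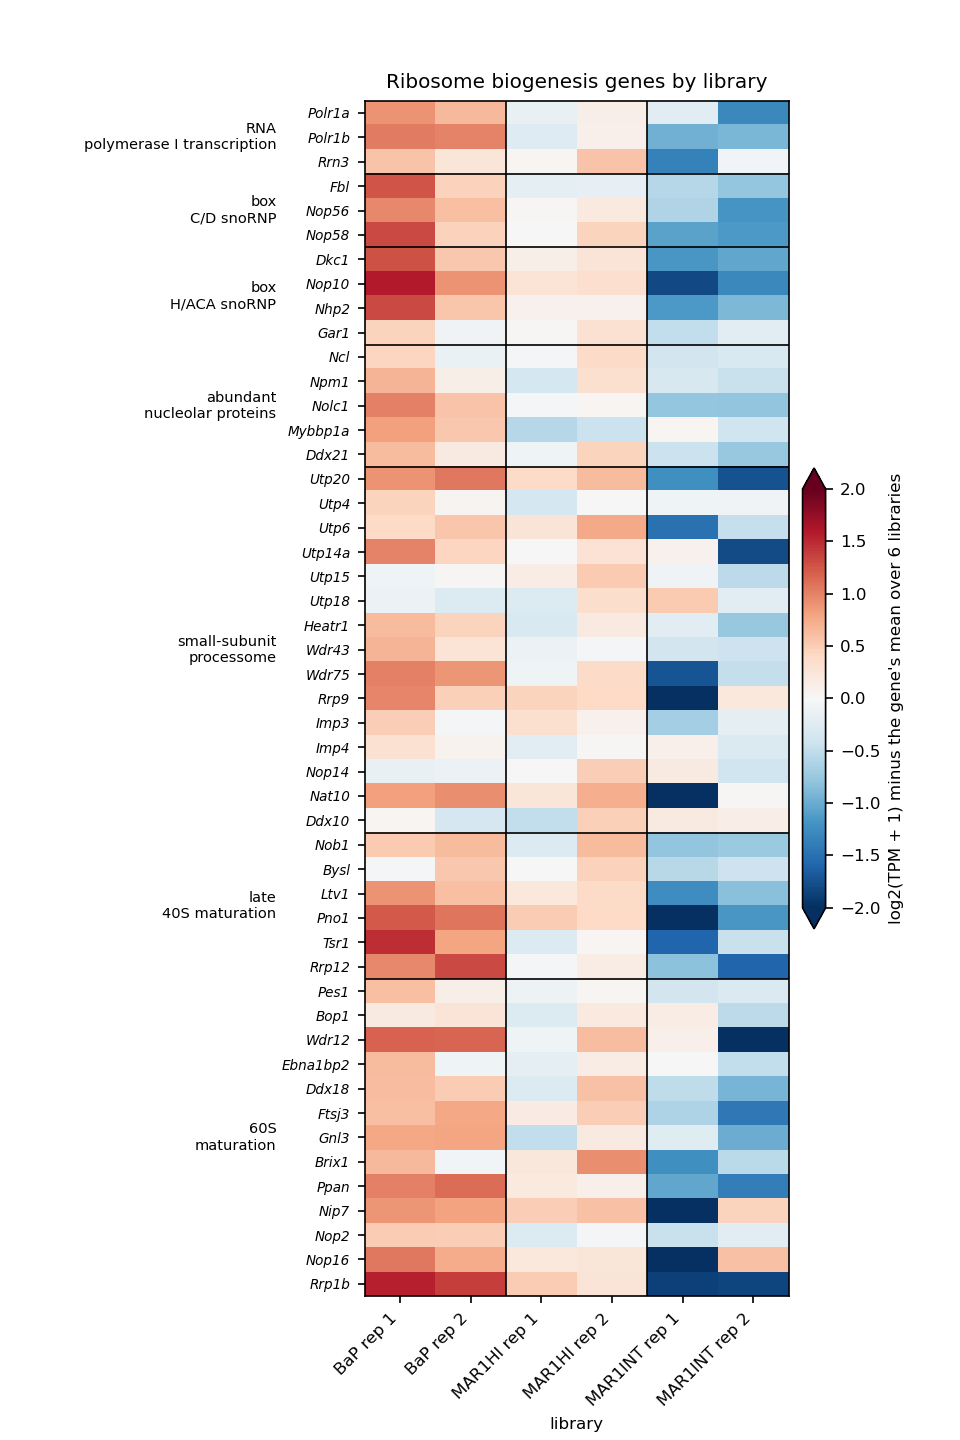
Heat map of log2(TPM + 1) for the 49 genes (rows, by role) in the 6 libraries (columns), each gene centred on its own mean over the libraries, with the colour scale ending at -2 and 2. The BaP columns are mostly above and the MAR1INT columns mostly below each gene's mean, while Utp18, Nop14 and Ddx10 show no such step.

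Between MAR1HI and BaP, no member passed the test (limma on log2(TPM + 1), adjusted over all tested genes, threshold 0.05). Of all tested genes 0.662% were called lower and 1.83% higher in that comparison, which made few calls of any kind. By unadjusted p under 0.05 there were 14 members and 1980 genes, and the smallest adjusted p of a member was 0.0618 (limma), for Mybbp1a. The median difference over the members was -0.45 on the log2 scale, against 0.24 over all genes tested, and 42 of 49 were negative, against 32.6% of all genes. For 32 members (65.3%) both MAR1HI libraries lay below both BaP libraries, a pattern that 15.3% of tested genes showed. Of 15 other settings 7 also called 0 members lower, and the other 8 called 1 to 4: quantile normalization called Mybbp1a, Fbl, Gnl3 and Polr1b, and fitting without either MAR1INT library called Mybbp1a, Fbl, Nop10 and Tsr1.

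Between MAR1INT and MAR1HI, 12 of 49 members were called lower (24.5%) and 0 higher, where 14.5% of tested genes were called lower and 2.29% higher. The 12 were Nop56, Nop58, Dkc1, Nop10, Utp20, Utp6, Ltv1, Pno1, Ftsj3, Brix1, Ppan and Rrp1b. Ftsj3 and Brix1 were called again in 4 of 15 other settings, and Nop56, Utp6 and Ltv1 in 5. Nop10 was called in 12 of them, the most of any member. The member median was -0.88 and that of all genes -0.36. Both MAR1INT libraries lay below both MAR1HI libraries in 34 members (69.4%), as they did in 42.2% of tested genes. The count was 3 with quantile normalization and 0 with no filter on low values. It was also 0 without either MAR1HI library, 6 without either BaP library, 13 without MAR1INT replicate 1 and 18 without replicate 2. In the same comparison 24 of 24 proliferation markers were called lower, against 0 of 24 between MAR1HI and BaP, and 24 of 24 were also lower in MAR1INT than in BaP. Their part in the member differences was not tested.

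Across the full span, MAR1INT against BaP, 27 of 49 members were called lower (55.1%) and 0 higher, where 20.4% of tested genes were called lower and 11.1% higher. The member median was -1.45, against -0.16 for all genes, and 46 members were negative. The exceptions were Utp18, Nop14 and Ddx10. In 43 members (87.8%) the MAR1INT libraries lay below both BaP libraries, against 39.1% of tested genes, and in 23 members (46.9%) all 3 populations were ordered without overlap from BaP to MAR1HI to MAR1INT, against 8.82%. These 3 comparisons share libraries, so their counts are not independent. Without BaP replicate 1 the count of 27 became 9, without BaP replicate 2 it became 12, with either MAR1HI library left out 21, and with either MAR1INT library left out 27. With no filter on low values it was 15. There were 9 members called lower in this comparison in every alternative that tested them: Nop56, Nop58, Dkc1, Nop10, Utp20, Pno1, Rrp12, Ppan and Rrp1b.

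**Figure D2:**
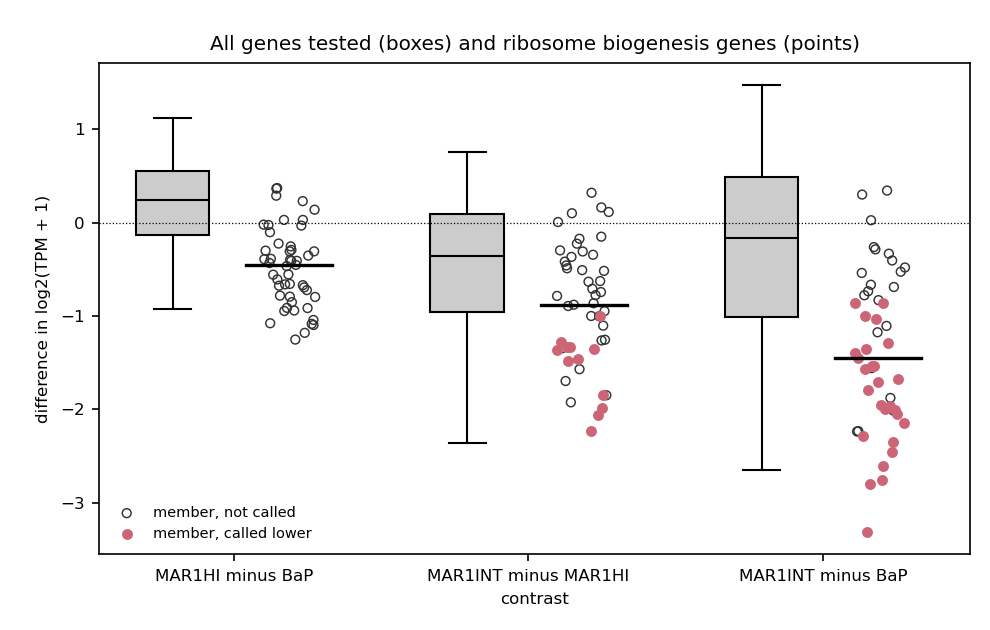
Log2 differences of the 49 genes (points, spread sideways for view; filled where called lower at adjusted p under 0.05) in the 3 comparisons, with a thick line at the member median. The boxes show all 11337 tested genes (quartiles, whiskers at the 5th and 95th percentile); the member medians lie at -0.45, -0.88 and -1.45, below the medians of all genes at 0.24, -0.36 and -0.16.

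Among the 3 members of RNA polymerase I transcription, both large catalytic subunits were called lower in MAR1INT than in BaP (66.7%, against 20.4% of tested genes). Polr1a (chromosome 6, 71909053-71979360, mm10) stood at 25.6 and 21.3 TPM in BaP, 11.9 and 14.3 in MAR1HI, then 11.2 and 4.79 in MAR1INT, with a difference of -1.54 ± 0.44 (SE) and an adjusted p of 0.025 (limma). Polr1b fell more evenly, from 20.4 and 19.8 TPM in BaP to 7.73 and 10.1 in MAR1HI and 4.32 and 4.52 in MAR1INT (-1.96, adjusted p = 0.00483, limma). Neither gene had a MAR1INT library inside the range of the other groups. Rrn3, the initiation factor that brings the polymerase to the gene, was at 38.8 and 30.6, 26.4 and 38.7, and 9.535 and 24.7 TPM and did not pass (-1.11, adjusted p = 0.0845, limma). Its BaP and MAR1HI values overlapped, and the MAR1INT duplicates were far apart.

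The genes of all 3 box C/D snoRNP proteins were called lower in MAR1INT than in BaP, where 20.4% of tested genes were. Of these 3, 2 were also called lower than in MAR1HI, where 14.5% of tested genes were. Their summed level was 424 TPM in BaP, 236 in MAR1HI and 123 in MAR1INT (group means). Fibrillarin (Fbl), the methyltransferase, stood at 201 and 115 TPM in BaP, 72.7 and 74.3 in MAR1HI, then 55.8 and 48.5 in MAR1INT. Its step lay mostly before MAR1HI: -1.04 from BaP to MAR1HI (adjusted p = 0.102, limma) and -0.49 from there to MAR1INT (adjusted p = 0.289), with -1.53 ± 0.29 (SE) over both (adjusted p = 0.00404, limma). Nop58, a core scaffold protein, was at 196 and 107, 78.4 and 106, and 36.6 and 34.6 TPM. It showed the reverse proportion, with -0.66 for the first step and -1.33 for the second (adjusted p = 0.0208, limma), and -1.99 ± 0.31 (SE) in all. Nop56, its partner, was at 128 and 99.8, 66.2 and 75.04, and 42.8 and 28.1 TPM (-1.68 from BaP to MAR1INT, adjusted p = 0.00231, limma). Whether the shape of the decline differed between these 3 genes was not tested.

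Of the genes of the 4 box H/ACA snoRNP proteins, 3 were called lower in MAR1INT than in BaP (75%, against 20.4% of tested genes). Their summed level was 304, 168 and 63.4 TPM. Nop10, a small core protein, had the steepest decline of the class: 166 and 103 TPM in BaP, 65.7 and 68.7 in MAR1HI, then 14.8 and 21.6 in MAR1INT. The second step was -1.85 (adjusted p = 0.00431, limma) and the whole -2.80 ± 0.31 (SE), a MAR1INT level 13.6% of that in BaP (adjusted p = 0.000307, limma). Dyskerin (Dkc1), the pseudouridine synthase, which also belongs to telomerase, was at 127 and 76.5, 56.6 and 62.3, and 22.8 and 24.9 TPM (-2.005 in all, adjusted p = 0.00119, limma). Nhp2 was at 69.5 and 40.4, 28.9 and 29.0, and 11.8 and 14.2 TPM (-1.96, adjusted p = 0.00273, limma). In these 3 genes the populations were ordered without overlap. Gar1, the fourth core protein, was at 15.2 and 10.2, 11.0 and 13.7, and 7.42 and 9.27 TPM, with BaP and MAR1HI overlapping (-0.54, adjusted p = 0.33, limma).

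The genes of the 5 abundant nucleolar proteins held the highest summed level of the classes, 619, 459 and 349 TPM. Of the 5, 3 were called lower in MAR1INT than in BaP (60%, against 20.4% of tested genes). Npm1 (nucleophosmin), the most abundant member on the TPM scale, stood at 487 and 328 TPM in BaP, 238.0 and 380 in MAR1HI, then 243 and 223 in MAR1INT. Its difference between MAR1INT and BaP was -0.78 with a 95% interval of -1.39 to -0.16, and an adjusted p of 0.0563 (limma). Both MAR1INT values were below both BaP values, and MAR1HI replicate 1 lay between the MAR1INT duplicates. Nucleolin (Ncl) overlapped fully between BaP (77.0 and 52.0 TPM) and MAR1HI (56.0 and 74.5), with 44.1 and 46.1 in MAR1INT (-0.48, 95% interval -1.12 to 0.16, adjusted p = 0.229, limma). Nolc1, a snoRNP chaperone, fell from 33.9 and 24.8 TPM over 16.1 and 16.8 to 9.17 and 9.07 (-1.57, adjusted p = 0.00847, limma). Ddx21, an RNA helicase, was also called (-1.001, adjusted p = 0.0444, limma). Mybbp1a, a Myb-binding nucleolar protein, was at its lowest in MAR1HI: 82.4 and 68.2 TPM in BaP, 31.1 and 34.0 in MAR1HI, then 47.7 and 34.9 in MAR1INT. Its MAR1INT level was lower than in BaP (-0.86, adjusted p = 0.041, limma), and the difference of 0.32 between MAR1INT and MAR1HI did not pass (adjusted p = 0.476, limma).

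**Figure D3:**
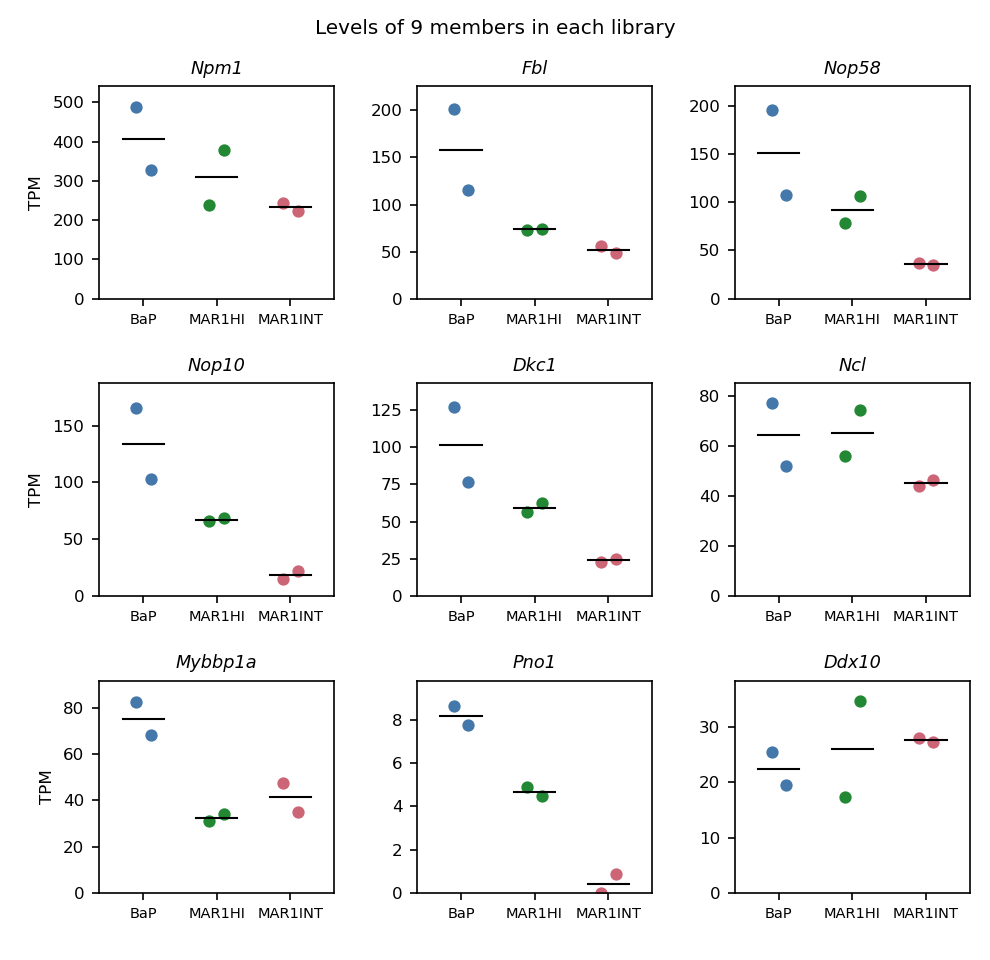
TPM in each library (linear axis from 0, 1 scale per panel) of 9 members in BaP, MAR1HI and MAR1INT, with 2 points per population and a line at their mean. The means of Nop58, Nop10, Dkc1 and Pno1 are lower at both steps, Mybbp1a is lowest in MAR1HI, Ncl spans 44.1 to 77.0 TPM and Ddx10 17.4 to 34.7 TPM.

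Of the 15 members of the small-subunit processome 5 were called lower in MAR1INT than in BaP (33.3%), where 20.4% of tested genes were. Only 2 were called lower than in MAR1HI (13.3%), no larger a share than the 14.5% of tested genes. In the wider comparison 12 were negative, with a median of -0.87 against -0.16 for all tested genes. Utp20, a large scaffold protein, declined most: 9.15 and 10.2 TPM in BaP, 6.10 and 7.43 in MAR1HI, then 1.33 and 0.633 in MAR1INT (-2.45, adjusted p = 0.00261, limma). Its step lay between MAR1HI and MAR1INT (-1.99, adjusted p = 0.0133, limma), as did that of Utp6, at 18.6 and 20.8, 16.7 and 24.03, and 4.29 and 9.80 TPM (-1.48, adjusted p = 0.0464, limma). The subcomplex that links transcription to early processing has 5 members in the set, of which Wdr75, Heatr1 and Wdr43 were lower in MAR1INT than in BaP (-2.05, adjusted p = 0.00718; -1.03, adjusted p = 0.0471; and -0.87, adjusted p = 0.0449, limma) and Utp4 and Utp15 did not pass. Wdr75 was at 44.45 and 40.5, 20.2 and 28.5, and 5.77 and 15.2 TPM, and the other two were closer to BaP.

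In 6 processome members the difference between MAR1INT and BaP was small and did not pass. Ddx10, an RNA helicase, was at 25.5 and 19.4 TPM in BaP, 17.4 and 34.7 in MAR1HI, then 28.0 and 27.3 in MAR1INT, the only member whose MAR1INT values both exceeded both BaP values. Its difference was 0.30 with a 95% interval of -0.55 to 1.15 (adjusted p = 0.581, limma). Utp18 was at 13.5 and 11.9, 11.98 and 18.8, and 21.5 and 12.4 TPM (0.34, adjusted p = 0.557, limma), and Nop14 at 18.9 and 19.2, 20.8 and 29.8, and 23.9 and 15.8 TPM (0.02, adjusted p = 0.965, limma). The 3 populations overlapped in Utp18, and Nop14 was higher in both MAR1HI libraries than in BaP, with MAR1INT on either side of BaP. The sign of both differences turned under some settings, to -0.034 for Utp18 without MAR1INT replicate 1 and to -0.20 for Nop14 on FPKM. Utp15 (-0.26, adjusted p = 0.654), Imp4 (-0.29, adjusted p = 0.518) and Utp4 (-0.33, adjusted p = 0.454) did not pass either (limma). The intervals of these 6 genes reach from at most -0.55 to at least 0.38, which leaves room for a decline or a rise. Imp3, which with Imp4 pairs the U3 snoRNA to the precursor, was higher than Imp4 on the TPM scale, at 105.2 and 72.8, 92.9 and 78.8, and 45.9 and 65.4 TPM (-0.67, adjusted p = 0.105, limma).

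Of the 6 members of late small-subunit maturation, 5 were called lower in MAR1INT than in BaP (83.3%, against 20.4% of tested genes). The sum of the 6 was 92.4, 51.1 and 20.9 TPM. Tsr1, a GTPase-like factor of the late particle, made its larger step first (-1.25, then -0.89), from 51.7 and 31.8 TPM in BaP to 14.6 and 18.5 in MAR1HI, and was at 5.30 and 12.99 in MAR1INT (-2.15, adjusted p = 0.00681, limma). Ltv1, an assembly chaperone, was at 24.8 and 19.9, 15.0 and 16.9, and 4.82 and 6.73 TPM (-1.79, adjusted p = 0.00641, limma). Both had an E-box after the start in the RefSeq window. Pno1, the partner of the endonuclease Nob1, went from 8.64 and 7.73 TPM in BaP over 4.87 and 4.48 to 0.849 in 1 MAR1INT library, and it is listed at 0 in the other (-2.75, adjusted p = 0.00197, limma). Rrp12, an export factor, was low throughout, at 4.93 and 6.63, 1.98 and 2.37, and 0.728 and 0.0115 TPM (-2.35, adjusted p = 0.00398, limma). Nob1 itself was at 11.1 and 12.03, 5.94 and 12.05, and 3.87 and 4.003 TPM (-1.35, adjusted p = 0.0442, limma). Bysl, the lowest member by mean TPM, at 3.60 TPM or less everywhere, did not pass (-0.73, adjusted p = 0.224, limma).

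Of the 13 members of large-subunit maturation, 6 were called lower in MAR1INT than in BaP (46.2%, against 20.4% of tested genes). There were 4 called lower than in MAR1HI (30.8%, against 14.5%), and all 13 were negative in both comparisons. Rrp1b had the largest difference of the set: 9.69 and 8.47 TPM in BaP, 4.18 and 3.38 in MAR1HI, and in MAR1INT 1 library listed at 0 and 1 at 0.0248 (-3.31 ± 0.41 SE, adjusted p = 0.00046, limma). Ppan was at 30.1 and 32.5, 16.7 and 15.5, and 6.47 and 4.89 TPM (-2.28, adjusted p = 0.00143, limma), and the methyltransferase Ftsj3 at 23.6 and 26.5, 17.2 and 21.8, and 9.55 and 5.02 (-1.71, adjusted p = 0.0105, limma). Each of these 3 was ordered without overlap. Brix1 differed from them in that MAR1HI was not below BaP: 23.2 and 14.0, 17.2 and 28.7, and 5.66 and 9.70 TPM. It was called between MAR1INT and MAR1HI (-1.46, adjusted p = 0.0498, limma) and not between MAR1INT and BaP (-1.17, adjusted p = 0.0699), and it was the only one of the 12 of which that is so. Gnl3 (nucleostemin), a GTPase known from stem and dividing cells, was lower in MAR1INT than in BaP, at 40.6 and 40.75, 16.2 and 26.4, and 19.4 and 11.2 TPM (-1.40, adjusted p = 0.0207, limma). The helicase gene Ddx18 was too, at 38.4 and 35.5, 20.3 and 37.3, and 16.9 and 12.4 TPM (-1.29, adjusted p = 0.0256, limma). Nop2, an RNA methyltransferase, did not pass, at 41.9 and 41.6, 23.99 and 28.4, and 21.3 and 24.9 TPM (-0.83, adjusted p = 0.055, limma), with the 4 MAR1HI and MAR1INT libraries all below BaP.

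The Pes1, Bop1 and Wdr12 proteins form 1 complex in the nucleolus, and the RNA of 1 of the 3 was called lower in MAR1INT than in BaP. Pes1 was at 69.3 and 49.2, 42.1 and 46.6, and 35.0 and 36.7 TPM (-0.69, adjusted p = 0.087, limma), and Bop1 at 17.96 and 19.1, 12.95 and 18.2, and 17.6 and 10.7 TPM (-0.41, adjusted p = 0.452, limma). Wdr12 was at 16.8 and 16.6, 6.37 and 11.0, and 7.42 TPM in 1 MAR1INT library with the other listed at 0. Its call (-2.61, adjusted p = 0.0387, limma) came with the largest standard error among the called members (0.83). The call was repeated in 5 of 15 other settings. Some other calls between MAR1INT and BaP were also repeated in few settings. Heatr1 and Ddx21 were called in 6 of the 15, Mybbp1a and Wdr43 in 7, and Polr1a and Utp6 in 8. Ebna1bp2, a partner in early large-subunit particles, was at 60.9 and 36.6, 33.6 and 43.3, and 38.7 and 27.2 TPM, with all populations overlapping (-0.53, adjusted p = 0.266, limma). A difference between the 3 complex members was not tested.

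Some members had 1 MAR1INT library far below the other. Nip7 was at 0.149 and 13.6 TPM, Nop16 at 0.197 and 11.6, Rrp9 at 2.17 and 19.8, Utp14a at 27.7 and 6.88, and Nat10 was listed at 0 in 1 library and stood at 5.87 TPM in the other. None of these 5 was called, and their adjusted p between MAR1INT and BaP ran from 0.0508 (Nat10) to 0.111 (Nop16; limma). Over all genes with 10 TPM or more in the other 4 libraries, 81 of 6384 had less than 1 TPM in 1 MAR1INT library and 5 or more in its duplicate, against 1 of 5698 in BaP and 1 of 5362 in MAR1HI. Among members, Nip7 alone met this description.

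Of the 49 genes, 8 hold snoRNA genes within their bounds on the same strand in the GENCODE M21 annotation, 23 in all: Nop56 has 5, Nop58 4, Ncl, Wdr43 and Gnl3 3 each, Tsr1 and Ppan 2 each, and Dkc1 1. Such hosts made up 16.3% of members and 2.12% of tested genes. All of the 8 except Ncl were called lower in MAR1INT than in BaP, where 55.1% of all members and 20.4% of tested genes were. The share called lower among all 240 tested hosts was not counted, and a link between hosting and the decline was not tested. The snoRNAs themselves were not measured here. In 10 members the gene overlaps a protein-coding gene on the opposite strand, for instance Nop56 with Idh3b, Dkc1 with Mpp1, Pno1 with Wdr92 and Rrp1b with Hsf2bp. Whether the counting used strand is not given in the sources used here, so reads of such pairs may not be separable.

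**Figure D4:**
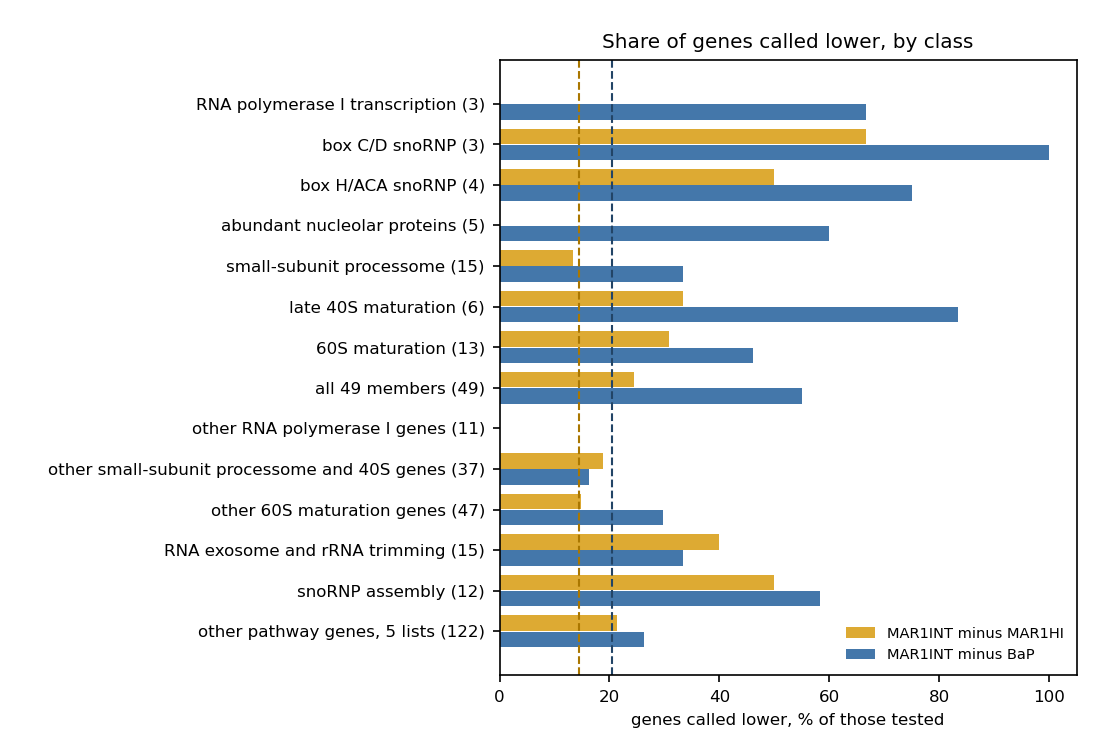
Share of genes called lower (percent of those tested, number in brackets) in MAR1INT against MAR1HI and against BaP, for each class of members and for the other genes of the pathway. The dashed lines mark the share among all tested genes, 14.5% and 20.4%; all 3 box C/D genes and 5 of 6 late small-subunit genes were lower against BaP, but 0 of 11 other RNA polymerase I genes. Classes are small.

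The rest of the pathway was described with 5 further lists of 123 genes, of which 122 were tested. In MAR1HI against BaP 0 of them were called and their median difference was 0.00, against -0.45 for the 49 and 0.24 for all tested genes. In MAR1INT against MAR1HI 26 were lower (21.3%) and 0 higher, where 14.5% of tested genes were lower. In MAR1INT against BaP 32 were lower (26.2%) and 1 higher, with a median of -0.57. Of all tested genes 20.4% were lower there, with a median of -0.16. By list, the wider comparison called lower 0 of 11 other RNA polymerase I genes (median -0.02), 6 of 37 other small-subunit genes (-0.32), 14 of 47 other large-subunit genes (-0.66), 5 of 15 genes of the RNA exosome and trimming (-0.98), and 7 of 12 genes of snoRNP assembly (-1.31). The other RNA polymerase I list, at 0%, and the other small-subunit list, at 16.2%, lay below the 20.4% of all tested genes. The difference between these lists and the 49 members was not tested. The deepest called differences were those of Rpf2, then Tma16, then Znhit3. Rpf2 was at 29.5 and 20.7, 14.2 and 29.0, and 3.38 TPM with 1 MAR1INT library listed at 0 (-3.62, adjusted p = 0.00357, limma). Znhit3 was at 7.70 and 8.35, then 4.48 and 6.38 TPM, and was listed at 0 in both MAR1INT libraries. Nop53, a large-subunit factor, was the 1 gene that rose, from 159 and 143 TPM over 187 and 230 to 284 and 285 (0.91, adjusted p = 0.00907, limma).

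Of the Myc network, 9 of 10 listed genes were tested, and in MAR1INT against BaP 2 were called higher (Max and Mxd1), 1 lower (Mxd3) and 6 neither. The median difference of the 9 there was 0.50, with 1 negative, against -0.16 for all tested genes. Myc itself stood at 48.4 and 47.7 TPM in BaP, 28.0 and 25.1 in MAR1HI, then 79.9 and 58.5 in MAR1INT. It did not pass between MAR1HI and BaP (-0.84, adjusted p = 0.157, limma), where both MAR1HI values were the lower ones. It was higher in MAR1INT than in MAR1HI (1.34, adjusted p = 0.0109, limma). Both MAR1INT values also lay above both BaP values, but Myc did not pass in that comparison.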

How the data were processed

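Per the labels' protocols, TRIzol LS was used for extraction, followed by a capture kit (SureSelect XT RNA Direct). The submitters' processing notes name Trimmomatic, HISAT2, StringTie and mm10; versions, options and the annotation release are not given in the sources used here. The deposited tables hold coverage, FPKM and TPM for each gene, per the file headers. Coverage and FPKM served to derive aligned bases, and FPKM also as an alternative. No read counts were used, so no counting interval is given and precision was judged from the duplicates.

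Gene IDs were joined to symbols by the RefSeq table of GRCm38.p6 (24462 of 24532 matched). A gene entered the test when 2 or more libraries reached 1 TPM (11337 genes). The model, fitted in R 4.3.3 to log2(TPM + 1), had 1 term per group and used all 6 libraries, with limma 3.58.1 moderating the variance along a trend (3 residual and 6.39 prior degrees of freedom in the median). Tests were two-sided, with Benjamini-Hochberg adjustment over all tested genes. Fold changes on this scale understate those of low genes. An exact permutation test of 2 against 2 libraries cannot give a p under 0.333. The fit was tested on simulated data. Tables used pandas 2.3.3 and numpy 2.4.6 under Python 3.11.15, figures matplotlib 3.10.9. The members, roles, other lists and alternatives were chosen with earlier results of these data known. Named members were the most abundant 2 of each role, those called between MAR1INT and MAR1HI, the 5 lowest and 5 highest differences between MAR1INT and BaP, and members higher in MAR1INT without overlap; others named were chosen after their values were seen.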

Additional observations from a re-analysis of the deposited data

How the results depend on the processing

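The direction of the member median held in every comparison and setting tried, and 0 members were called higher in any. Members called lower in MAR1HI against BaP (0) numbered 1 with a mean TPM of 5 or more, on FPKM, with median-of-ratios scaling and without histone genes, 4 with quantile normalization and with only the 2 groups compared, and 0 to 4 when 1 library was left out. Those lower in MAR1INT against MAR1HI (12) numbered 0 with no filter on low values, 3 with quantile normalization, 5 with median-of-ratios scaling, 6 with only the 2 groups compared, and 0 to 18 when 1 library was left out. Those lower in MAR1INT against BaP (27) numbered 15 with no filter, and 9 to 27 when 1 library was left out, with a median of -1.52 to -1.17. Quantile normalization moved the member medians to -0.75 in MAR1HI against BaP and to -0.38 in MAR1INT against MAR1HI, while it moved the medians of all genes from 0.24 to 0.02 and from -0.36 to 0.11 (median-of-ratios scaling, to -0.04 and -0.11). The cause of these shifts was not tested. A replicate block gave 0, 9 and 25 calls; replicate numbers were not taken as pairs, since deviations of same-numbered libraries correlated at 0.154, -0.092 and -0.059 across genes. The difference between MAR1INT and BaP turned for Utp15 and Bysl with quantile normalization (0.16 and 0.34), for Utp18 without MAR1INT replicate 1 (-0.034, with -0.034 to 0.72 over the libraries left out), and for Nop14 on FPKM (-0.20), without histone genes (-0.11) and without MAR1INT replicate 1 (-0.26, with -0.26 to 0.31). Of 596 single-gene values 455 kept their direction and call, 121 lost a call, 15 gained one and 5 turned; Bysl is not among these.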
